A study of Rattus norvegicus with 10 samples.

Results

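Nr1d1, Dbp and Bhlhe40 are genes of the circadian clock, and their mRNA was measured in the hearts of 10 rats. They were taken as 3 of the 20174 gene probes on the array, by their Ensembl identifiers, which are ENSRNOG00000009329 for Nr1d1, ENSRNOG00000021027 for Dbp and ENSRNOG00000007152 for Bhlhe40. All 3 were picked from mRNAs that the study lists as lower after dexmedetomidine (DEX) on these same arrays, so the difference between the groups is described here without a test. DEX is an agonist of alpha2 adrenergic receptors that is used as a sedative.

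The animals were male Wistar rats of 250 to 350 g, kept under 12 h of light and 12 h of dark and anesthetized with sevoflurane and butorphanol. In the DEX group (n = 5) the drug was infused into the tail vein for 30 min, first at 6 mcg/kg/h (10 min) and then at 0.7 mcg/kg/h (20 min), and a 5 min washout with saline followed. The control group (n = 5) was infused with saline throughout. Total RNA came from the anterior wall of the left ventricle, before any ischemia, and each heart had 1 array. The clock time at which each heart was taken is not given in the sources used here, so no signal could be set against it.

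The mammalian clock is a feedback loop of transcription. The activators CLOCK and BMAL1 bind E-box sequences in the promoters of their target genes, and the PER and CRY proteins inhibit them some hours later. Nr1d1 encodes REV-ERBalpha, a nuclear receptor that represses Bmal1. Dbp encodes a PAR bZIP factor that carries the rhythm to output genes through D-box sequences, and Bhlhe40 encodes DEC1, a bHLH repressor that competes for E-boxes. In the rodent heart, transcripts of the clock rise and fall in the course of a day.

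The promoters of the 3 genes are shown because the E-box is the element that CLOCK and BMAL1 bind. Each window holds the 250 bases before an annotated start in the RefSeq table of the GRCr8 assembly, written from 5′ to 3′ on the strand of the gene, with E-boxes, the variant form included, in capitals. The table held windows for 3 of 3 genes. Nr1d1 (chromosome 10, 84224599 to 84231812) lies on the minus strand and has 2 annotated starts, while Dbp (chromosome 1, 105312256 to 105317205) and Bhlhe40 (chromosome 4, 143174450 to 143180150) lie on the plus strand.
Nr1d1, upstream start, chr10:84231813-84232062, minus strand: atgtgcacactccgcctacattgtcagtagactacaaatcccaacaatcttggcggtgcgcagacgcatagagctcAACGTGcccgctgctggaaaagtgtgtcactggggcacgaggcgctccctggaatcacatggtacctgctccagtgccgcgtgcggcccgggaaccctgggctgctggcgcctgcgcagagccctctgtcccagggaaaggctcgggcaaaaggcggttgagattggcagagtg
Nr1d1, downstream start, chr10:84229455-84229704, minus strand: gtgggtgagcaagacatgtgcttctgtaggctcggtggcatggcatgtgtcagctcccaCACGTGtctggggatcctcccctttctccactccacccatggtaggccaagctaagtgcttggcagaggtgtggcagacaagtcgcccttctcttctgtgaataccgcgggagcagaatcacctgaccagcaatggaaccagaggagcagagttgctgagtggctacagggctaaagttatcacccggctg
Dbp, chr1:105312006-105312255, plus strand: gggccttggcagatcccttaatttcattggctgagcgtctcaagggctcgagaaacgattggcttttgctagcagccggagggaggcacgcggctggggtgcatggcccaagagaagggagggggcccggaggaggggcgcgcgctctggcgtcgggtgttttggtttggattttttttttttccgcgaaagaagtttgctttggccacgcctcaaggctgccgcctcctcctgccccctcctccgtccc
Bhlhe40, chr4:143174200-143174449, plus strand: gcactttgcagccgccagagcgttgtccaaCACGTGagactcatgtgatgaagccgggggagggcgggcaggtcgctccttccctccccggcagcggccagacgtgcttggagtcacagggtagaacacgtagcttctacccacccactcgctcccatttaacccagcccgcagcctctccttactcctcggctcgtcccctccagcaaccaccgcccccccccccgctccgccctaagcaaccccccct

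The E-box CACGTG was found in the windows of the downstream Nr1d1 start, 191 to 186 bases before the start, and of Bhlhe40, 220 to 215 bases before it. The variant form CACGTT, read as AACGTG, was found 174 to 169 bases before the upstream Nr1d1 start. In the Dbp window neither form was found, and the rest of the gene was not searched. Of 33469 windows of the same length in the table, 5.59% held CACGTG, 4.07% held CACGTT on either strand and 9.43% held at least 1 of both. The D-box forms TTATGTAA and TTACGTAA, the cAMP response element TGACGTCA and the nuclear receptor motif AGGTCA were also searched on both strands and had no match in the 4 windows. They occurred in 0.828%, 0.108%, 1.59% and 14.1% of all windows. A match is a description of letters, and no binding was measured.

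Between 13528 and 15337 of the gene probes were detected on an array, with a median of all detected signals set to 25. The mean of the blank spots, which carry no probe, ranged from 57.1 to 60.5 scanner units in control rats and from 59.9 to 62.6 in DEX rats (p = 0.0159 by a two-sided exact permutation test, n = 5 in each group). Over the 14519 probes tested, the median log2 difference, DEX minus control, was -0.17, so that differences below are to be read against this shift. Of the heart muscle list, 5 of 16 genes have a symbol here, among them Ttn, which encodes the sarcomere protein titin, and Myocd, which encodes a coactivator of muscle genes. All 5 were detected on every array, but this was set in advance. Symbols were sought only among probes detected on all arrays. Other markers, and Bmal1, Clock and the Per and Cry genes, have no symbol on these arrays and are not analysed here.

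Nr1d1 was lower in every DEX rat than in any control rat. Its normalized signal in the control rats was 174 (rat 1), 133 (rat 2), 83.4 (rat 3), 86.3 (rat 4) and 80.4 (rat 5). In the DEX rats it was 74.0 (rat 1), 47.0 (rat 2), 46.8 (rat 3), 42.3 (rat 4) and 35.7 (rat 5). Control rats 1 and 2 stood above the other control rats, which lay close together, and DEX rat 1 stood above the other DEX rats. The means were 112 ± 41.3 (SD, n = 5) and 49.2 ± 14.6 (SD, n = 5), a log2 difference of -1.15 (standard error 0.24), which is a 2.23-fold lower level. The nearest rats of the groups, control rat 5 and DEX rat 1, were 6.35 signal units apart.

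Dbp was also lower in the DEX group, with 1 exception to the separation of the groups. Its normalized signal in the control rats was 476 (rat 1), 497 (rat 2), 529 (rat 3), 513 (rat 4) and 302 (rat 5). In the DEX rats it was 399 (rat 1), 269 (rat 2), 221 (rat 3), 249 (rat 4) and 180 (rat 5). Control rat 5 lay below DEX rat 1, and in the other 24 of 25 pairs of a DEX rat and a control rat the DEX rat was lower. The means were 463 ± 92.2 (SD, n = 5) and 264 ± 82.6 (SD, n = 5), with a log2 difference of -0.84 (standard error 0.21), which is 1.79-fold lower. Without control rat 5 or without DEX rat 1 the groups did not overlap, and the log2 difference was -0.98 and -1.0.

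Bhlhe40 had the smallest difference of the 3 genes and a narrow DEX group. Its normalized signal in the control rats was 91.7 (rat 1), 66.9 (rat 2), 50.2 (rat 3), 47.4 (rat 4) and 61.5 (rat 5). In the DEX rats it was 38.9 (rat 1), 37.9 (rat 2), 41.3 (rat 3), 37.7 (rat 4) and 34.0 (rat 5). All DEX rats lay below all control rats, and the highest DEX rat was 6.14 signal units under the lowest control rat. The means were 63.6 ± 17.6 (SD, n = 5) and 37.9 ± 2.63 (SD, n = 5), a log2 difference of -0.71 (standard error 0.17), which is 1.63-fold lower. The spread among control rats was 27.8% of the mean, while it was 6.94% among DEX rats. Without control rat 1 the log2 difference was -0.56, which is under 1.5-fold.

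**Figure D1:**
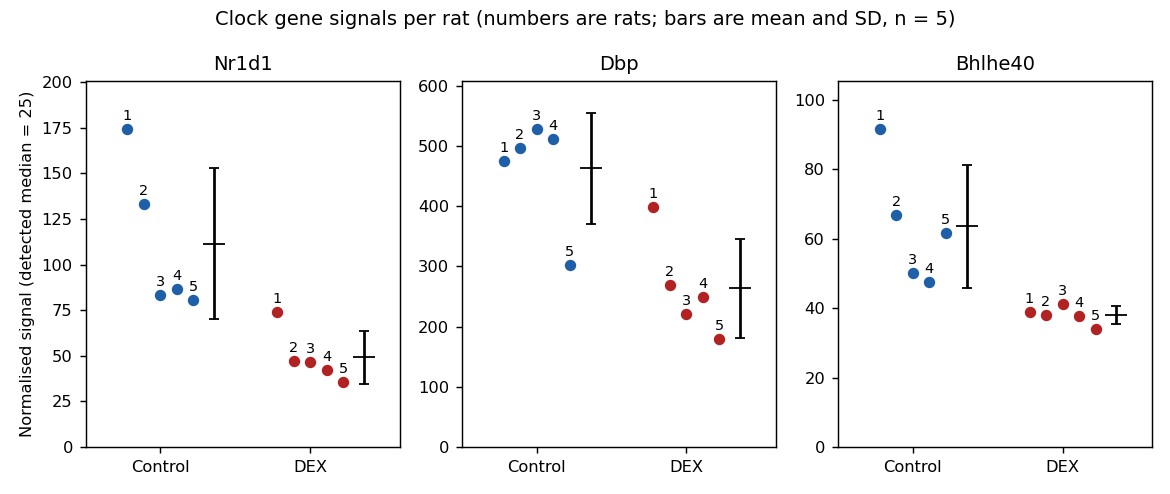
Normalized signal of Nr1d1, Dbp and Bhlhe40 (linear axes from 0) in each of 5 control and 5 DEX rats, with the rat's number over its point and the mean ± SD as a bar. The groups are apart for Nr1d1 and Bhlhe40, and for Dbp control rat 5 at 302 lies under DEX rat 1 at 399.

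In bulk tissue, fewer cells of a type and less RNA in each cell cannot be told apart. The dimmest signal of each gene was 20.4 times (Nr1d1), 102 times (Dbp) and 19.4 times (Bhlhe40) the lowest detected signal of its array, so that no value of the 3 genes was set by the detection limit. The deposited table gave the same signals as whole numbers, with log2 differences of -1.15, -0.84 and -0.70.

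The call rule was an unadjusted limma p-value under 0.05 with a change of at least 1.5-fold. It called 3 of 3 genes lower, against 2.7% of all probes in this direction, and a log2 difference below 0 was found for 79.9% of all probes. The groups did not overlap in 2 of the 3 genes, against 1.44% of all probes with DEX lower. At an adjusted p under 0.05 limma called 0 probes (lowest adjusted p = 0.148), with 2100 at an unadjusted p under 0.05. The methods' t-test, run with equal variances, also called 0. It had 1859 unadjusted on linear signals, the scale of the printed values, and 1994 on log2 signals. The genes were chosen for this contrast, so nothing is read from these shares. Of all 14519 differences, Nr1d1 had the 10th lowest, Dbp the 94th and Bhlhe40 the 223rd. Among the 151 mRNAs listed as lower, they took places 4, 24 and 58.

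**Figure D2:**
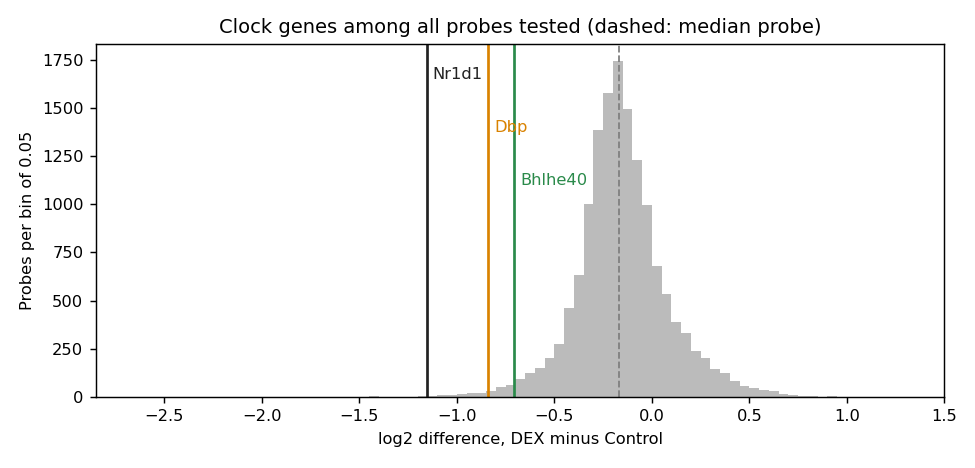
Histogram of the log2 difference, DEX minus control, of the 14519 probes tested (probes per bin of 0.05), with the 3 clock genes as coloured lines and the median probe, at -0.17, as a dashed line. The lines of Nr1d1 (-1.15), Dbp (-0.84) and Bhlhe40 (-0.71) lie in the lower tail.

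A ratio of 2 genes on the same array does not depend on the scaling of that array. The log2 ratio of Nr1d1 to Bhlhe40 was lower by 0.45 (standard error 0.19) in the DEX group than in the control group, and in 4 of 5 DEX rats it was under the lowest control rat. The ratio of Nr1d1 to Dbp changed by -0.32 (standard error 0.24) and that of Dbp to Bhlhe40 by -0.13 (standard error 0.30), with the ranges of the groups overlapping in both. These ratios come from the contrast that chose the genes and were not tested.

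Because transcripts of the clock change with the time of day, the rats were then put in order within each group by each of the 3 genes. In the control group the order from high to low was 1, 2, 4, 3, 5 by Nr1d1, 3, 4, 2, 1, 5 by Dbp and 1, 2, 5, 3, 4 by Bhlhe40. Control rat 1 was the highest in Nr1d1 and Bhlhe40 but only the 4th in Dbp, and control rat 5 was the lowest in Nr1d1 and Dbp but the 3rd in Bhlhe40. In the DEX group the order was 1, 2, 3, 4, 5 by Nr1d1, 1, 2, 4, 3, 5 by Dbp and 3, 1, 2, 4, 5 by Bhlhe40. DEX rat 5 was the lowest in all 3 genes, and DEX rat 1 was the highest in Nr1d1 and Dbp and the 2nd in Bhlhe40. By blank level from low to high, the order was 1, 2, 3, 4, 5 in the control group and 1, 3, 2, 4, 5 in the DEX group, which differs from the order by Nr1d1 in the place of 1 pair of rats in each group. The order of the rats and the blank level of their arrays cannot be told apart for this gene.

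Of the 10 pairs of rats in a group, 2 in the control group and 7 in the DEX group were ordered alike by all 3 genes. Nr1d1 and Dbp ordered 4 of 10 control pairs and 9 of 10 DEX pairs alike. For Nr1d1 and Bhlhe40 the numbers were 7 and 8, and for Dbp and Bhlhe40 they were 3 and 7. Whether the groups differ in this was not tested. The DEX order of Bhlhe40 rests on signals between 34.0 and 41.3, a range of 1.21-fold.

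**Figure D3:**
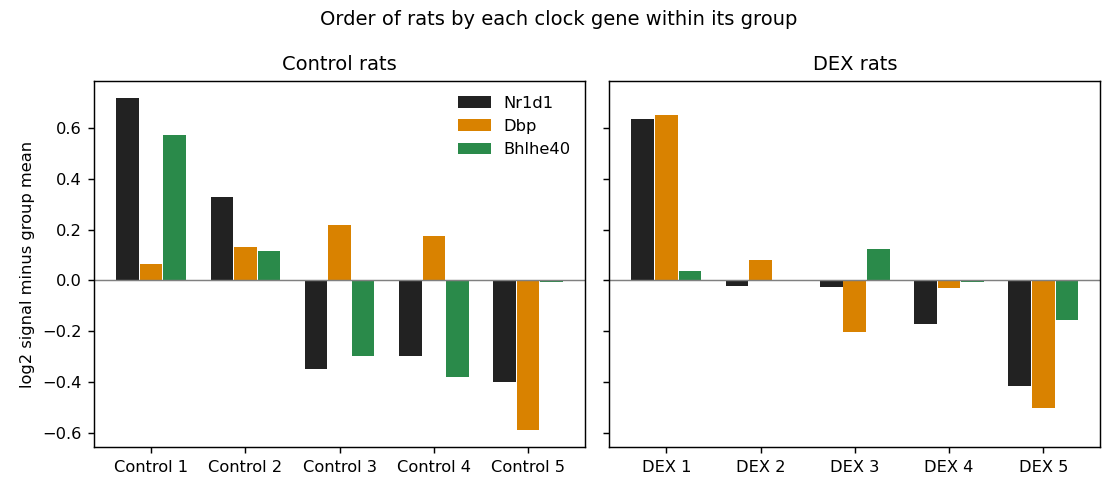
Log2 signal of Nr1d1, Dbp and Bhlhe40 minus the mean of the group, for each control rat (left) and each DEX rat (right). Control rats 3 and 4 are above their mean in Dbp and below it in the other genes, while DEX rat 5 is below its mean in all 3.

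The correlation of the genes over all 10 rats, after the group means were removed, was tested by exact permutation of rats within each group (14400 arrangements, two-sided, 3 pairs of genes). Nr1d1 and Bhlhe40 had r = 0.76 (exact permutation p = 0.0155, adjusted p = 0.0465) and rho = 0.77 (exact permutation p = 0.0257, adjusted p = 0.0771). Nr1d1 and Dbp had r = 0.61 (exact permutation p = 0.0828, adjusted p = 0.124) and rho = 0.44 (exact permutation p = 0.225, adjusted p = 0.338). Dbp and Bhlhe40 had r = 0.0022 (exact permutation p = 0.995, adjusted p = 0.995) and rho = -0.13 (exact permutation p = 0.754, adjusted p = 0.754). Without the 2 rats farthest from the median, which were control rat 1 and DEX rat 1 for Nr1d1 and control rat 5 and DEX rat 1 for Dbp, r was 0.66, 0.45 and -0.053 in the same order of pairs. By group, r in control and in DEX rats was 0.88 and 0.55 for Nr1d1 and Bhlhe40. It was 0.30 and 0.95 for Nr1d1 and Dbp, and -0.15 and 0.45 for Dbp and Bhlhe40. These values by group were not tested. The log2 SD of Bhlhe40 was 0.38 in control and 0.10 in DEX rats, so control rats weigh more in its pooled r.

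The relation of Nr1d1 and Bhlhe40 is to be read against the other probes, because signals of most probes moved together from array to array. Over 12717 other probes detected on all arrays, the median r with Nr1d1 was 0.52, with Dbp 0.42 and with Bhlhe40 0.34. Of these probes, 16.1% had an r with Nr1d1 at least as high as that of Bhlhe40, and 38.6% at least as high as that of Dbp. When arrays were scaled on the probes detected on all of them, r of Nr1d1 and Bhlhe40 was 0.53 with an adjusted p of 0.304 (exact permutation test), and that of Dbp and Bhlhe40 was -0.45.

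Other probes followed the 3 genes within the groups as closely. Likeness was measured as r with the mean of the 3 genes, each divided by its SD, over the 10 rats after removal of the group means. Its median was 0.54 over the 12718 probes detected on all arrays, less the 3 genes themselves. Of the other listed mRNAs, Cdr2 (0.88), Apold1 (0.86), Rmdn2 (0.83) and Adamts10 (0.83) were among the most alike. Apold1 encodes an early response protein of endothelium. At the other end were Grm5 (-0.55), which encodes a glutamate receptor, Ccdc69 (-0.42), Eda2r (-0.38), which encodes a receptor of the TNF family, Hamp (-0.33), which encodes the iron hormone hepcidin, and Tmpo (-0.28). The probes ENSRNOG00000020317 (0.98) and ENSRNOG00000028411 (0.98), which have no symbol here, were higher than these, with log2 differences between the groups of -0.25 and -0.16, and ENSRNOG00000017092 (-0.69) and ENSRNOG00000033050 (-0.72) were the lowest. Some of these probes were dim, at either end of likeness. Signals were 1.56 to 5.50 for Grm5, 1.75 to 3.86 for Tmpo and 1.82 to 6.01 for Adamts10. For the 2 lowest probes without a symbol they were 2.48 to 6.49 and 2.78 to 3.91. The lowest detected signal was 1.37 to 1.76 over the arrays. The part of noise in the likeness of dim probes was not tested.

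Of 27 clock genes on the list, 4 have a symbol here, and the 4th is Kdm8, which encodes a JmjC domain oxygenase. Kdm8 had signals of 341, 185, 276, 248 and 189 in control rats 1 to 5 and of 177, 142, 140, 162 and 159 in DEX rats 1 to 5. The groups did not overlap, and the log2 difference was -0.63 (standard error 0.17). Of 16 output genes of the clock in the heart, 3 have a symbol. Gpam, the first enzyme of triglyceride synthesis, had a mean of 8.56 ± 1.39 in control rats and of 5.01 ± 1.16 in DEX rats (SD, n = 5 in each group). The log2 difference was -0.78. Its groups were barely apart, with the lowest control rat at 7.17 and the highest DEX rat at 6.99. Gpam was dim, and came down to 2.58 times the lowest detected signal of an array. Lpin1, a phosphatidate phosphatase of triglyceride synthesis, had means of 431 ± 131 and 273 ± 57.6, and Ccnd1, which encodes cyclin D1, of 135 ± 23.3 and 85.0 ± 21.4, with overlapping groups for both. Within the groups Ccnd1 and Lpin1 had a likeness of 0.82 and 0.80 to the clock genes, Gpam 0.68 and Kdm8 0.44.

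Hormones and cAMP also act on clock genes, and 2 of the 10 genes on a list of such responses have a symbol. Dusp1, which encodes a phosphatase of MAP kinases, had a mean of 644 ± 182 in control rats and of 321 ± 37.3 in DEX rats (SD, n = 5 in each group), with no overlap, and its likeness was 0.77. Crem, which encodes a cAMP responsive factor, had means of 7.83 ± 1.92 and 5.22 ± 1.4, with overlap, and its likeness was 0.70. All of these genes carry a symbol only because the study listed them as changed on these arrays, so their direction is not independent evidence of a change in the clock.

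The levels of cell type markers are given beside those of the clock genes. Of 8 endothelial markers, 3 have a symbol (Arhgef15, Unc5b and Apold1), and their summed signal was 144 to 290.3 in control rats and 104 to 162 in DEX rats. Most of this sum was the early response gene Apold1, with a control mean of 161 against 30.2 for Unc5b and 8.46 for Arhgef15. The 5 heart muscle genes (Ttn, Myocd, Kcna4, Kcne2 and Ky) summed to 57.9 to 89.1 and to 38.5 to 54.1, without overlap, though Myocd and Ky overlapped on their own. All 5 have a symbol only because the study listed them as lower on these arrays, so a lower sum was set by the choice. Fap, the 1 fibroblast marker of 6 with a symbol, was at 7.71 to 12.6 and 5.45 to 8.03. Of 6 blood markers 2 have a symbol. The erythrocyte anion exchanger gene Slc4a1 was at 12.1 to 26.6 and 9.95 to 18.4, and the chemokine gene Ccl3 at 5.65 to 9.38 and 7.20 to 14.9. The summed blood signal was 17.8 to 33.5 and 19.6 to 31.1. None of these markers was at 0 on any array, because symbols were sought only among probes detected on all arrays. The other markers of each list have no symbol here. What part the markers had in the signals of the clock genes was not tested. The markers of every list carry a symbol only because they were listed as changed on these arrays, so their levels do not measure the amount of a cell type.

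Within the groups Nr1d1 was lower on arrays with a higher level of the blank spots, and for Dbp and Bhlhe40 this relation did not pass the test. In order of rising blank level the arrays were control 1, 2, 3 and 4, DEX 1, control 5, and DEX 3, 2, 4 and 5. Around the middle of this order, where the groups meet, control rat 4 and DEX rat 1 had blank levels of 59.8 and 59.9. Their signals were 86.3 and 74.0 for Nr1d1, 513 and 399 for Dbp, and 47.4 and 38.9 for Bhlhe40. Control rat 5 and DEX rat 3, at 60.5 and 61.0, had 80.4 and 46.8 for Nr1d1, 302 and 221 for Dbp, and 61.5 and 41.3 for Bhlhe40. Between these pairs lay DEX rat 1 and control rat 5, which are also neighbours in blank level. The DEX rat was the lower one for each gene in the 3 pairs of neighbours, except that Dbp was higher in DEX rat 1 than in control rat 5 (399 and 302). That pair is also the only one in which the DEX array had the lower blank level. The pairs share rats and the genes were chosen for this contrast, so nothing about the blank level is read from them.

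Within the groups, r with the blank level was -0.93 for Nr1d1 (exact permutation p = 0.00042, adjusted p = 0.0025), -0.67 for Dbp (exact permutation p = 0.0322, adjusted p = 0.0643) and -0.66 for Bhlhe40 (exact permutation p = 0.0806, adjusted p = 0.121). The corresponding rho was -0.89 (exact permutation p = 0.00333, adjusted p = 0.02), -0.53 (exact permutation p = 0.143, adjusted p = 0.214) and -0.72 (exact permutation p = 0.0452, adjusted p = 0.136). Without control rats 1 and 5, which had the blank levels farthest from the median, r was -0.91, -0.64 and -0.66. Over all probes detected on every array the median r with the blank level was -0.49, and 0.472% of probes had a lower r than Nr1d1, 26.7% a lower r than Dbp and 27.9% a lower r than Bhlhe40. The number of detected probes had r = 0.81 with Nr1d1 (exact permutation p = 0.0150, adjusted p = 0.0450; rho = 0.60, exact permutation p = 0.101, adjusted p = 0.202), but 0.18 without control rat 1 and DEX rat 1, so that this relation rests on these rats. With Dbp it had r = 0.59 (exact permutation p = 0.102, adjusted p = 0.123; rho = 0.37, exact permutation p = 0.320, adjusted p = 0.383), and 0.46 without them. With Bhlhe40 it had r = 0.53 (exact permutation p = 0.176, adjusted p = 0.176; rho = 0.32, exact permutation p = 0.426, adjusted p = 0.426), and -0.21 without them. These 6 relations were chosen after the data were seen.

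**Figure D4:**
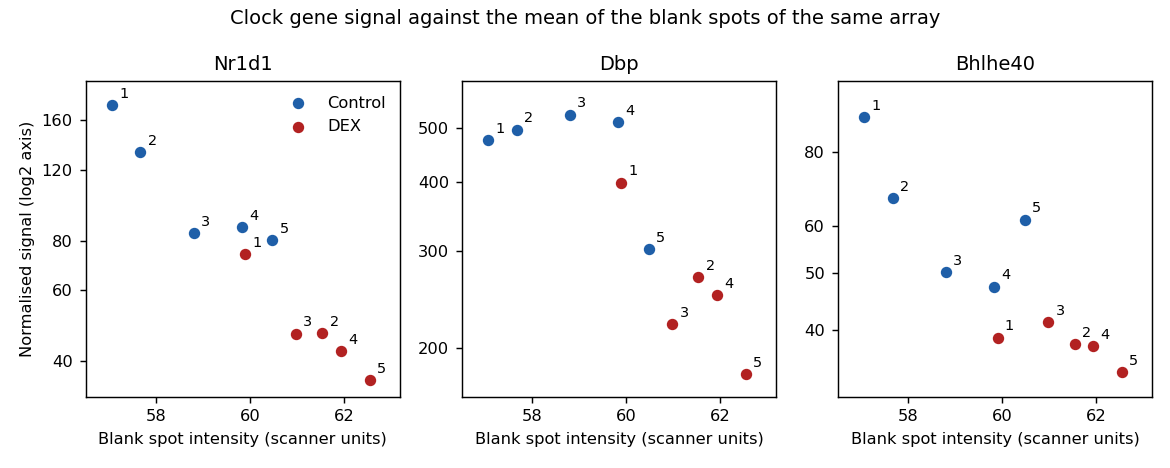
Normalized signal of each gene (log2 axis) against the mean intensity of the blank spots of the same array (scanner units), with rats numbered and groups coloured. The groups meet between 59.8 and 60.5. Dbp lies between 476 and 529 in control rats 1 to 4, and Bhlhe40 is higher in control rat 5 (61.5) than in control rat 4 (47.4) in spite of the higher blank level.

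When the fit also held the blank level, the log2 differences were -0.28 for Nr1d1 (standard error 0.18), -0.30 for Dbp (standard error 0.27) and -0.32 for Bhlhe40 (standard error 0.21), and none of the 3 stayed past the thresholds. The median over all probes was then 0.07. Because the blank level itself differed between the groups, the part of each in the differences cannot be told apart in this design. Probes that shared the array block of Nr1d1, Dbp or Bhlhe40 had median log2 differences of -0.22, -0.09 and -0.14, close to the -0.17 of all probes.

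Scaling moved the 3 genes together with all probes. With quantile normalization the log2 differences were -1.0, -0.69 and -0.55, and with scaling on the probes detected on all arrays -1.0, -0.69 and -0.56, so that Bhlhe40 was under 1.5-fold in both. Relative to the median probe, the 3 differences were -0.99, -0.67 and -0.54 as reported and -0.98, -0.67 and -0.53 with quantile normalization. The column of background intensity in the files followed the spots themselves. It ran from 95 to 219 scanner units for Nr1d1, whose spots ran from 107 to 237, and from 299 to 688 for Dbp, whose spots ran from 287 to 653, while the blank spots had means of 57.1 to 62.6. Its median was 95.9% (Nr1d1), 104% (Dbp) and 92.1% (Bhlhe40) of the intensity of the spot. A correction with this column (normexp) therefore takes away the signal of the gene, and the values it gave, -0.062, 0.019 and -0.0064, say nothing about the differences.

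**Figure D5:**
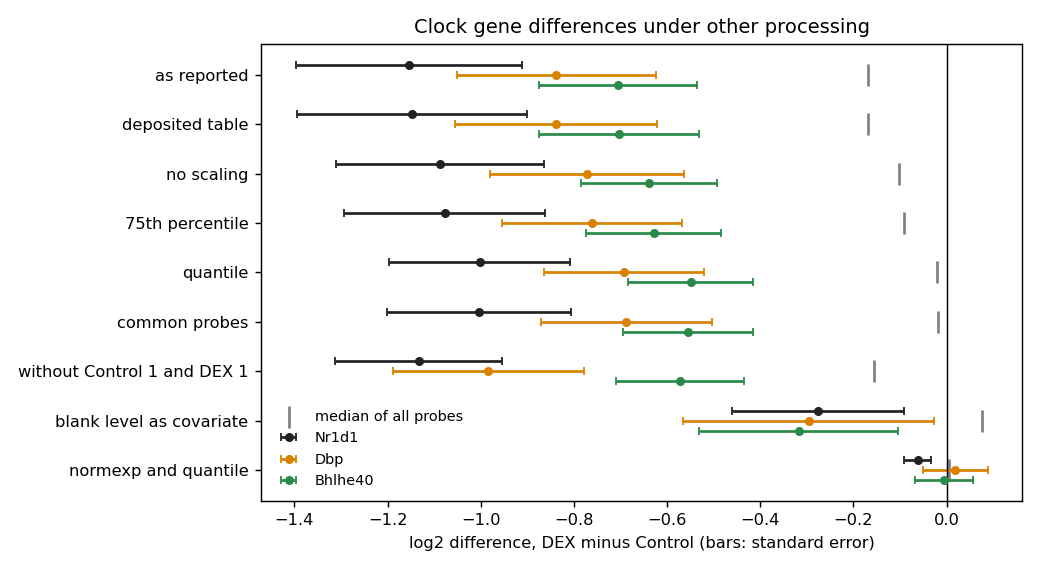
Log2 difference, DEX minus control, with its standard error, for each gene under 9 ways of processing, and the median of all probes as a grey tick. The differences lie between -1.15 and -0.55 in the upper 7 ways, move to between -0.32 and -0.28 when the blank level is in the fit, and lie near 0 with normexp, which takes away the signal of the genes because the background column followed their spots.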

How the data were processed

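The authors deposited, for each array (Toray 3D-Gene Rat Oligo chip 20k, Cy5 label), the spot and background intensity at 635 nm on a linear scale, neither corrected nor scaled, and 1 table for all arrays with rounded normalized values. The scanner software is named in the methods without a version. The 1344 blank spots, less 68 at either end, gave a mean that was taken off each spot. Spots above this mean plus 2 SD with no failure mark were taken as detected, and the detected median was set to 25. After rounding, 142667 of the 142668 values of the deposited table were equal.

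The files name probes by Ensembl identifier alone. Symbols were sought among the 12718 probes detected on all arrays. The p-value was recomputed by t-tests with equal and with unequal variances, and a match to either was taken. A symbol was given where fold change and p-value were those printed for 1 of 165 mRNAs in the lists of the study. The tolerance was 5.25e-06 for the fold change (5.25e-07 for ratios under 1) and a relative 0.0001 for the p-value. All 165 matched 1 probe, so their ratios equal the printed ones by construction. The 3 genes and the gene lists were chosen with earlier results of these data known. Genes named are the 3 genes, list members with a symbol, and the 5 listed mRNAs at each end of likeness, with the 2 probes without a symbol at each end. Of these, 2 genes are not reported here, and 1 of them was left out of its list.

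Log2 signals, floored for undetected spots at the dimmest detected spot on the array, were compared without covariates by limma 3.58.1 in R 4.3.3, over the 14519 probes detected on at least 3 arrays of a group, with Benjamini-Hochberg adjustment. The rest was run in Python 3.11.15 with scipy 1.17.1, numpy 2.4.6, matplotlib 3.10.9 and pandas 2.3.3. The limma and permutation steps were tested on simulated data. No 2 arrays held the same values. Rats with the same number in both groups had deviations that correlated between -0.10 and 0.07 over probes, so no pairing by number was seen over all probes. The blank level, and with it Nr1d1, nonetheless ran nearly in step with the number in both groups. With the number as a block, the standard error of Nr1d1 was 0.12, against 0.24 without it. A shared order by number is therefore not excluded. The number of arrays limits the precision.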

Additional observations from a re-analysis of the deposited data

Results flagged for a closer look

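Dbp in control rat 5, at a normalized signal of 302, lay far below the other 4 control rats, which had signals from 476 to 529. Its distance to the nearest of them was 0.766 of the range of the group, above the critical value of Dixon's test for 5 samples, 0.71. Chance marks about 1 in 20 groups, and 6 groups were examined. DEX rat 1 was close to the limit in Nr1d1, with a ratio of 0.706.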

How the results depend on the processing

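Each log2 difference of the 3 genes moved by less than 1 SD of the rats under 18 of 20 alternatives. The replicate number as a block is counted among the 18, though it cannot move these differences. Also among the 18 are the 10 fits with 1 array left out. Leaving out 1 of 5 rats cannot move a difference by 1 SD, so nothing is read from the count of 18. The exceptions were the blank level as a covariate (Nr1d1 -0.28, Dbp -0.30, Bhlhe40 -0.32) and normexp with quantile normalization (-0.062, 0.019 and -0.0064), which subtracts a background column that followed the spots of the genes. With each array left out in turn, Nr1d1 lay between -1.31 and -0.97, Dbp between -1.0 and -0.71 and Bhlhe40 between -0.80 and -0.56.

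The correlations within groups depended on the processing. That of Nr1d1 and Bhlhe40 (0.76) lost its adjusted p under 0.05 with the deposited table (0.76), quantile normalization (0.52), 75th percentile scaling (0.63), scaling on common probes (0.53), no scaling (0.68), the blank level as a covariate (0.52), linear signals (0.88) and without array 1 of both groups (0.69, an alternative chosen after seeing the data), and it was -0.28 with normexp. With arrays left out it was 0.54 to 0.88 and kept an adjusted p under 0.05 in 3 of 10 cases, without control rat 5 (0.81), DEX rat 1 (0.88) or DEX rat 3 (0.78). That of Nr1d1 and Dbp (0.61) was 0.37 to 0.73 with arrays left out 0.35 with quantile normalization, 0.38 on common probes, 0.37 with linear signals and 0.19 with normexp, and turned to -0.071 with the blank level. That of Dbp and Bhlhe40, near 0 as reported, was -0.0037 with the deposited table, -0.51 with quantile normalization and -0.31 with 75th percentile scaling. It was -0.45 on common probes, -0.21 with no scaling, -0.064 with linear signals and 0.30 with normexp. Without array 1 of both groups it was -0.21, and with arrays left out -0.14 to 0.12. With the blank level it was -0.80 (permutation of residuals, adjusted p = 0.0356). Over all its alternatives the adjusted p of the permutation tests ran from 0.0356 to 0.996. Residuals from a fit with the blank level cannot be freely exchanged between rats. The p-values of that setting are therefore approximate, and nothing is read from them.

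Of all probes, 392 were called lower and 64 higher. The counts were 118 and 195 with quantile normalization, 216 and 121 with 75th percentile scaling, 114 and 193 on common probes, 233 and 112 with no scaling, 79 and 255 with the blank level, 105 and 80 with normexp, and 239 and 59 over probes detected on all arrays. With arrays left out, 211 to 681 were lower (211 without control array 1, 681 without control array 5, 646 without DEX array 1) and 26 to 131 higher (26 without control array 3, 131 without control array 4, 110 without DEX array 3). All DEX arrays lay below all control arrays in 209 probes, in 126 with the deposited table, 129 with no scaling, 138 with normexp and 1409 without array 1 of both groups. With arrays left out this count was 216 to 1396 (541 without control array 4, 628 without control array 5, 1396 without DEX array 1, 355 without DEX array 4). With the replicate number as a block, 383 probes were lower and 66 higher. The differences of the 3 genes, -1.15, -0.84 and -0.71, cannot change in this fit, because each number has 1 array in each group. Their standard errors were 0.12, 0.15 and 0.16 with the block, against 0.24, 0.21 and 0.17 without it. No slide, scan or other batch is named in the files, so no such block was fitted. The number of arrays, and for dim probes the blank level, limit what can be read.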
